A study of Mus musculus with 6 samples.

Results

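The genes described here encode enzymes, transporters and regulatory subunits through which the liver takes up, breaks down, makes and stores glucose. They are 33 genes of gluconeogenesis, glycolysis, fructose breakdown, glycogen metabolism and the exchange of malate and aspartate. They were picked by name, but with earlier results of these data known, so shares set beside those of all rows only describe this list. All 33 were found among the 58601 rows of the deposited table. Of the 33, 11 were classed as hepatocyte isoforms, 6 as isoforms of other cells and 16 as enzymes that most cell types share.

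RNA of liver tissue was sequenced from mice labelled as Mdr2 knockouts (Mdr2-/-, named Mdr2-HKO in the growth protocol, which does not explain the letter H). Mdr2 is the gene Abcb4, whose product carries phosphatidylcholine into bile. The vehicle group had 3 libraries from Mdr2-/- liver after 2 weeks of vehicle, and the lycorine group had 3 libraries from Mdr2-/- liver after 2 weeks of lycorine, a plant alkaloid. Both groups carried the knockout and were 8 weeks old when treatment began, so nothing here compares the knockout with intact mice. Sex, dose and any group with intact Mdr2 are not given in the labels used here. The labels number the libraries without saying that each came from a separate animal, so a p-value measures only how far these libraries spread, and that spread may be technical.

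In the liver, glycolysis and gluconeogenesis run through the same reversible enzymes and differ at a few one-way steps, where separate enzymes push the flow in each direction. Hepatocytes use their own isoforms at several of those steps, such as Pklr, and their own glucose carrier, Slc2a2. Bile duct cells, leukocytes and dividing cells use Hk1, Hk2, Pkm and Slc2a1. Glycogen is built by glycogen synthase and opened by glycogen phosphorylase, with protein phosphatase 1 subunits steering both.

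No row of the whole table passed limma with Benjamini-Hochberg adjustment at 0.05 (0 of 13854 tested, 0.0%), and 476 rows (3.44%) had an unadjusted p under 0.05. Vehicle 3 stood apart: protein-coding nuclear genes took 51.5% of its TPM against 63.7% to 78.1% in the others, and albumin (Alb) stood at 5039 TPM against 11824 to 19785 TPM. The mitochondrial share was 12.9% to 20.1% in vehicle and 9.48% to 13.2% in lycorine. Tested rows had a median log2 fold change of 0.22 toward lycorine, and 69.9% of them lay above 0, so the values below are to be read against that shift. Depth is not recorded in TPM (a share of transcripts, scaled for transcript length) and is unknown here.

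All 33 glucose genes reached a mean of 1 TPM and were tested, and 28 had higher values in lycorine. For 12 of 33 members (36.4%) each lycorine library lay above each vehicle library, where 9.6% of all tested rows did so. No member lay below in the same way, where 1.01% of all rows did, so 36.4% is also the share in either direction, against 10.6% of all rows. Unadjusted p under 0.05 in limma was reached by 6 members (18.2%), all higher in lycorine, against 2.79% of all rows in that direction, and 0 were lower, against 0.65%. After Benjamini-Hochberg adjustment over all rows, limma called 0 members, with adjusted p from 0.832 to 0.996. The median log2 fold change of the 33 members was 0.51. It was 0.59 for the 16 shared enzymes, 0.45 for the 11 hepatocyte isoforms and 0.05 for the 6 isoforms of other cells. In tissue RNA, fewer cells of a type and less RNA per cell cannot be told apart.

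**Figure D1:**
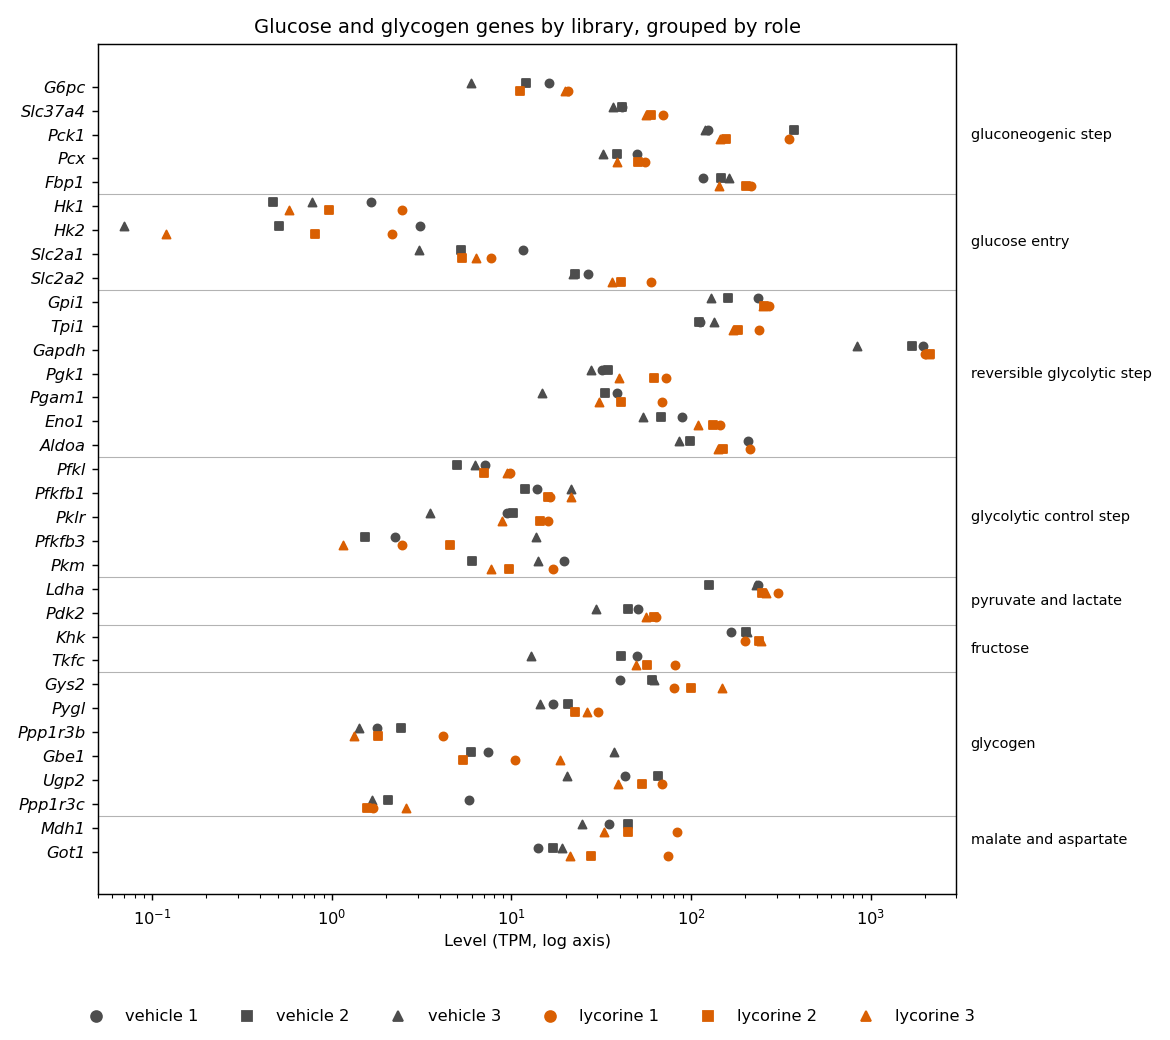
Level of each of the 33 genes in TPM (log axis) in each library, grouped by role, with vehicle libraries in grey and lycorine libraries in orange. The orange points lie to the right of all grey points for 12 genes, among them Slc37a4, Slc2a2, Tpi1, Eno1 and Gys2, and the triangles of vehicle 3 are often leftmost.

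The members spanned a wide range of levels. Gapdh alone held 46.3% of the TPM of all 33 genes, Ldha 6.05%, Gpi1 5.62%, Pck1 5.47% and Khk 5.44%, while Hk1 and Hk2 held 0.0298% and 0.0291%. Summed over the 33 genes, vehicle 1, 2 and 3 had 3777, 3505 and 2388 TPM, and lycorine 1, 2 and 3 had 4855, 4413 and 4254 TPM. Without Gapdh the sums were 1824, 1814 and 1547 TPM in vehicle against 2858, 2267 and 2141 TPM in lycorine, again with no overlap. Vehicle 3 held the lowest of the 6 values for 19 of the 33 genes (57.6%), against 37.0% of all tested rows. Lycorine 1 held the highest for 22 (66.7%), against 31.0% of all tested rows.

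**Figure D2:**
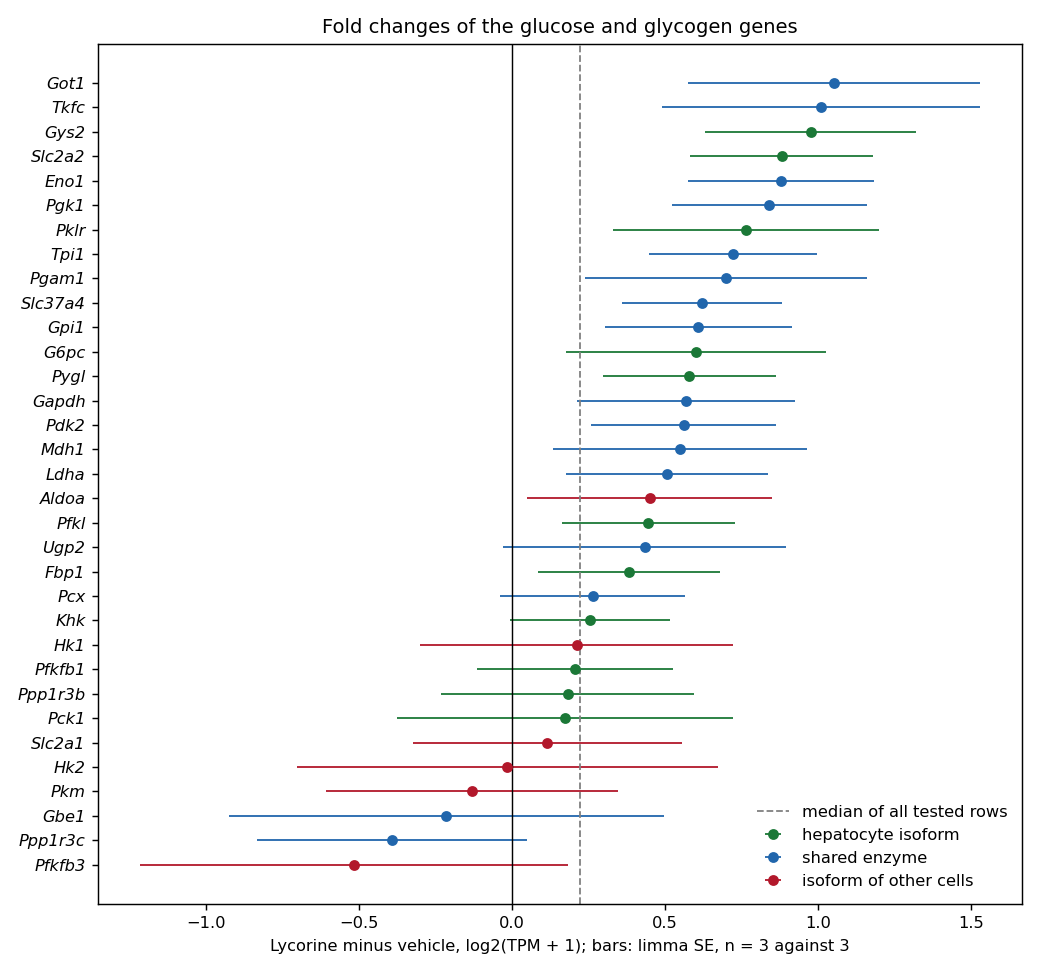
Lycorine minus vehicle on the log2(TPM + 1) scale for the 33 genes, ordered by size, with limma standard errors as bars (3 against 3 libraries) and colours for the class of isoform. The dashed line is the median of all tested rows, 0.22, and 23 genes lie to its right, of which 1 is an isoform of other cells (Aldoa).

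Of the listed genes, 5 were classed as gluconeogenic steps, apart from the reversible enzymes. All 5 had higher values in lycorine as deposited, with a median log2 fold change of 0.38. Glucose 6-phosphate is carried into the endoplasmic reticulum by the product of Slc37a4 (chr9:44396852-44402968, plus strand, GRCm38), where glucose-6-phosphatase, encoded by G6pc, releases glucose. Slc37a4 stood at 41.1, 41.2 and 36.6 TPM in vehicle 1 to 3 and at 69.4, 59.5 and 56.0 TPM in lycorine 1 to 3. All lycorine libraries were above all vehicle libraries, and the spread within each group was narrow (39.7 ± 2.64 and 61.6 ± 6.98 TPM, mean ± SD, n = 3 each). Its log2 fold change was 0.62 (SE 0.26, limma unadjusted p = 0.0470, adjusted p = 0.832).

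G6pc (chr11:101367561-101377903, plus strand) stood at 16.2, 12.1 and 5.96 TPM in vehicle and at 20.5, 11.2 and 19.9 TPM in lycorine. Lycorine 2 lay among the vehicle libraries, and vehicle 3 was the lowest of all. Its log2 fold change of 0.60 (SE 0.43) was 0.23 without vehicle 3. Slc37a4, its partner in glucose release, kept 0.56 without that library.

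Pck1 (chr2:173153048-173159273, plus strand) encodes phosphoenolpyruvate carboxykinase, the fasting-induced enzyme that turns oxaloacetate into phosphoenolpyruvate. It stood at 123.6, 372.4 and 120.3 TPM in vehicle and at 350.3, 157.1 and 144.5 TPM in lycorine. In each group 1 library was high and the other 2 were low, so the groups covered the same range. Its log2 fold change of 0.17 (SE 0.55) became -0.14 under median-of-ratios scaling, -0.15 under quantile normalization and -0.09 when rescaled to protein-coding genes.

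Pcx, the mitochondrial pyruvate carboxylase, stood at 49.8, 38.8 and 32.2 TPM in vehicle and at 55.4, 50.7 and 38.8 TPM in lycorine, with overlap. Its log2 fold change was 0.26, and -0.04 under median-of-ratios scaling. Fbp1, the fructose-1,6-bisphosphatase that reverses phosphofructokinase, stood at 115.9, 147.7 and 162.4 TPM in vehicle and at 214.2, 202.3 and 142.8 TPM in lycorine. Of the 3 lycorine values, 2 were above all vehicle values and the last was among them (log2 fold change 0.38, SE 0.30).

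Promoters were read to see which members carry response elements of the hormones and sugars that govern this pathway. RefSeq promoter windows on GRCm38.p6, 250 bases before each start, matched 31 of the 33 genes with 48 windows, and Gys2 and Ppp1r3b had no entry. On both strands, TGACG, the half-site of the cAMP response element, was in 10 of 48 windows (20.8%) against 17.8% of 32841 windows in the table. The E-box CACGTG was in 6 of 48 (12.5%) against 6.02%, and the forkhead letters TGTTTAC were in 0 of 48 against 3.17%. Only these exact letters were counted, so a window without them may still hold another form of the site. The E-box and the half-site can share letters, as they do in Khk. Shown is a window with a motif from each of the 4 members that had one and whose groups did not overlap, and Pck1, known for its cAMP response element. Each runs 5′ to 3′ on the gene's strand, and capitals mark E-box and TGACG matches, the latter written CGTCA where it lies on the other strand. Slc37a4 (chr9:44396696-44396945, plus strand) has TGACG, Pck1 (chr2:173152823-173153072, plus strand) and Pygl (chr12:70227684-70227933, minus strand) have CGTCA, Pdk2 (chr11:95041372-95041621, minus strand) has an E-box, and Ldha (chr7:46845554-46845803, plus strand) has 2 E-boxes and both strands of the half-site overlapping near its start.
Slc37a4: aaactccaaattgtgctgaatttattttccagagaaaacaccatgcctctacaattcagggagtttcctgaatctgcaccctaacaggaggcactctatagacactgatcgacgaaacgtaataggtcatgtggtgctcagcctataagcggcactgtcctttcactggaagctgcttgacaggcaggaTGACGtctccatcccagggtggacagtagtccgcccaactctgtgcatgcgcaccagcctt
Pck1: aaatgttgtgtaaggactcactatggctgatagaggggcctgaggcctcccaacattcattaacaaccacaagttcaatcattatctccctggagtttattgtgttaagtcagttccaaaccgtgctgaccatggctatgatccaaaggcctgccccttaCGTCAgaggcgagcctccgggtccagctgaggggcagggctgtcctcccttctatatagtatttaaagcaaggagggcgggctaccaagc
Ldha: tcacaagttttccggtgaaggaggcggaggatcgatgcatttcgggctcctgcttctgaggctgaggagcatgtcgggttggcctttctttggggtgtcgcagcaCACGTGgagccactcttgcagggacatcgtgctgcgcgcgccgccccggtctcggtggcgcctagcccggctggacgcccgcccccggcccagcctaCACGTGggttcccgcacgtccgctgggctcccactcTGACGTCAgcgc
Pdk2: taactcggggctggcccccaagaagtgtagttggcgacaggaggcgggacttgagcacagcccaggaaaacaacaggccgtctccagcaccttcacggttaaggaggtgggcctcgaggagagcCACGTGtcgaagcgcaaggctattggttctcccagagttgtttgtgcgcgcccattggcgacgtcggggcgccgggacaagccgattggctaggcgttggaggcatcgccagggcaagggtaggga
Pygl: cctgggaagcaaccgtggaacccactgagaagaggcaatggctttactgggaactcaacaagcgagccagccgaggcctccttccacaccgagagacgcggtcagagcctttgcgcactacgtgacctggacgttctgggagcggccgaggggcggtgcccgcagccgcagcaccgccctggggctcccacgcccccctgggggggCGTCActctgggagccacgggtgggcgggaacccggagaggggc
The first base of the half-site lies 61 bases before the start in Slc37a4, 90 in Pck1 and 44 in Pygl, and the E-boxes of Ldha lie 145 and 48 bases before its start. A match is a description of letters and not a bound site. Pck1 and Slc37a4 both hold the half-site in these windows, and their levels differed in pattern: Slc37a4 did not overlap between groups and Pck1 did.

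Glucose enters hepatocytes through the high-capacity carrier GLUT2, encoded by Slc2a2 (chr3:28697903-28731359, plus strand). It stood at 26.8, 22.6 and 22.1 TPM in vehicle 1 to 3 and at 59.5, 40.9 and 36.2 TPM in lycorine 1 to 3. The vehicle libraries were close together, and the lowest lycorine library was 1.35 times the highest vehicle library. The log2 fold change was 0.88 (SE 0.30, limma unadjusted p = 0.0204, adjusted p = 0.832), and it lay between 0.67 and 1.03 when each library in turn was left out. Its groups stayed apart under median-of-ratios scaling (0.58), quantile normalization (0.63) and rescaling to protein-coding genes (0.62).

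The other entry genes of the list belong to other cells. Slc2a1, encoding GLUT1, stood at 11.6, 5.26 and 3.05 TPM in vehicle and at 7.71, 5.33 and 6.35 TPM in lycorine, so the lycorine values lay inside the vehicle range. Hk1, a low-Km hexokinase, stood at 1.65, 0.47 and 0.78 TPM in vehicle and at 2.47, 0.96 and 0.58 TPM in lycorine. Hk2, the inducible hexokinase of muscle, fat and tumours, stood at 3.08, 0.51 and 0.07 TPM in vehicle and at 2.15, 0.81 and 0.12 TPM in lycorine. Library 1 was the highest of each group for Slc2a1, Hk1 and Hk2, and log2 fold changes were 0.11, 0.21 and -0.02. The value of Slc2a1 turned to -0.14, -0.01 and -0.10 under median-of-ratios, quantile and protein-coding scaling.

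Among the reversible enzymes of glycolysis, all 7 listed genes had higher values in lycorine, as deposited and under each of the 3 other scalings. For 5 of them (Gpi1, Tpi1, Gapdh, Pgk1 and Eno1) the groups did not overlap in the deposited values (71.4%, against 9.6% of all rows), and the median log2 fold change over the 7 was 0.70. The count was 2, 2 and 3 of 7 under median-of-ratios, quantile and protein-coding scaling, against 3.12%, 4.02% and 4.97% of all rows. The median was 0.40 under median-of-ratios scaling, 0.43 under quantile normalization, 0.44 for protein-coding genes and 0.42 without vehicle 3, where the medians of all tested rows were -0.03, 0.07, 0.02 and 0.19. Summed, the 7 stood at 2669, 2196 and 1286 TPM in vehicle and at 3008, 2969 and 2858 TPM in lycorine.

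Eno1 (chr4:150236721-150248879, plus strand), encoding alpha-enolase, stood at 89.3, 68.2 and 53.8 TPM in vehicle and at 144.1, 132.2 and 109.1 TPM in lycorine. Every lycorine library was above every vehicle library under all 4 scalings. The log2 fold change was 0.88 (SE 0.30, limma unadjusted p = 0.0213, adjusted p = 0.832), and it lay between 0.70 and 1.06 with single libraries left out. Eno1b, a near-identical copy that can share reads with it, stood at 31.3, 33.2 and 21.7 TPM in vehicle and at 80.7, 54.1 and 38.2 TPM in lycorine, so the split between the copies is uncertain while both pointed the same way.

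Pgk1 (chrX:106187100-106203699, plus strand), encoding phosphoglycerate kinase, stood at 31.9, 34.4 and 27.6 TPM in vehicle and at 72.6, 62.6 and 39.9 TPM in lycorine. The groups did not overlap, though lycorine 3 was near the vehicle values. Pgk1 had a log2 fold change of 0.84 (SE 0.32, limma unadjusted p = 0.0316, adjusted p = 0.832). Tpi1 (chr6:124810586-124814296, minus strand), the triose phosphate isomerase, stood at 112.2, 110.7 and 133.8 TPM in vehicle and at 239.4, 182.9 and 171.4 TPM in lycorine. Vehicle 3 was the highest vehicle library here, unlike for most members, and the log2 fold change of 0.72 (SE 0.27, limma unadjusted p = 0.0324, adjusted p = 0.832) was 0.81 without it.

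Gapdh (chr6:125161715-125166467, minus strand), the glyceraldehyde-3-phosphate dehydrogenase, stood at 1953, 1691 and 841 TPM in vehicle and at 1997, 2146 and 2114 TPM in lycorine. The lowest lycorine library was 1.02 times the highest vehicle library, and vehicle 3 was far below the rest. For Gapdh the log2 fold change of 0.57 (SE 0.36) was 0.20 without vehicle 3. Gapdh also has processed pseudogenes that can take reads from it. Gpi1, glucose phosphate isomerase, stood at 235.9, 159.8 and 129.9 TPM in vehicle and at 272.5, 254.8 and 251.4 TPM in lycorine, a tight and higher lycorine group (log2 fold change 0.61, SE 0.31, limma unadjusted p = 0.0845).

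The last 2 genes of these reversible steps overlapped between groups. Pgam1, phosphoglycerate mutase, stood at 38.9, 33.1 and 14.9 TPM in vehicle and at 68.7, 40.9 and 30.6 TPM in lycorine (log2 fold change 0.70, SE 0.46), and the value was 0.29 without vehicle 3. Aldoa, the aldolase of muscle and many dividing cells, stood at 207.8, 99.0 and 85.9 TPM in vehicle and at 213.4, 150.0 and 141.7 TPM in lycorine. Vehicle 1 sat with the lycorine libraries, and the log2 fold change of 0.45 had an SE of 0.40. A further row of the annotation bears the symbol Aldoa and stood at or under 0.16 TPM in every library, so it was not used.

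The one-way control steps of glycolysis showed no common direction: 3 of 5 were higher in lycorine as deposited, and 2 of 5 under each of the 3 other scalings. Pklr (chr3:89136142-89146784, plus strand), the liver pyruvate kinase and a classic sugar-induced gene, stood at 9.44, 10.2 and 3.52 TPM in vehicle and at 16, 14.5 and 8.87 TPM in lycorine. Lycorine 1 and 2 were above all vehicle libraries and lycorine 3 was not. The log2 fold change of 0.76 (SE 0.43, limma unadjusted p = 0.119) was 0.34 without vehicle 3. Pkm, the pyruvate kinase gene of most other cells, stood at 19.7, 6.05 and 14.1 TPM in vehicle and at 17.0, 9.71 and 7.71 TPM in lycorine, with full overlap and a log2 fold change of -0.13.

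Pfkl, the liver phosphofructokinase subunit, stood at 7.16, 4.97 and 6.30 TPM in vehicle and at 9.77, 7.01 and 9.41 TPM in lycorine, with only lycorine 2 inside the vehicle range (log2 fold change 0.45, SE 0.28). Pfkfb1 and Pfkfb3 encode enzymes that set the level of fructose 2,6-bisphosphate, the activator of phosphofructokinase. Pfkfb1, the liver form, stood at 13.9, 11.9 and 21.6 TPM in vehicle and at 16.4, 15.96 and 21.5 TPM in lycorine, and its log2 fold change of 0.21 turned to -0.09, -0.03 and -0.05 under median-of-ratios, quantile and protein-coding scaling. Pfkfb3 stood at 2.26, 1.54 and 13.7 TPM in vehicle and at 2.47, 4.54 and 1.16 TPM in lycorine. A single library, vehicle 3, gave Pfkfb3 its negative log2 fold change of -0.52, which was 0.27 without it.

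At the exit of glycolysis, the groups of both listed genes did not overlap as deposited, where 9.6% of all rows lay wholly above. Ldha (chr7:46841475-46855627, plus strand), lactate dehydrogenase A, which interconverts pyruvate and lactate, stood at 234.8, 126.0 and 230.1 TPM in vehicle and at 304.0, 247.9 and 260.2 TPM in lycorine. Vehicle 2 was low, and the other 2 vehicle libraries were just under the lycorine group (log2 fold change 0.51, SE 0.33, limma unadjusted p = 0.166, and 0.21 without vehicle 2). Pdk2, a kinase that switches off pyruvate dehydrogenase, stood at 51.0, 44.6 and 29.7 TPM in vehicle and at 63.9, 61.8 and 56.3 TPM in lycorine (log2 fold change 0.56, SE 0.30, limma unadjusted p = 0.103). Under median-of-ratios scaling the groups overlapped for both, with log2 fold changes of 0.20 for Ldha and 0.26 for Pdk2.

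Cytosolic malate dehydrogenase and aspartate aminotransferase move reducing power and oxaloacetate between mitochondria and cytosol. Got1 (chr19:43499752-43524605, minus strand), the aminotransferase, stood at 14.0, 17.0 and 19.0 TPM in vehicle and at 74.9, 27.6 and 21.2 TPM in lycorine. The groups did not overlap, but lycorine 1 was far above its own group. The difference of 1.05 in log2 (SE 0.48, limma unadjusted p = 0.0607), the largest of the 33 members, was 0.52 without lycorine 1. Mdh1 stood at 34.98, 44.4 and 24.6 TPM in vehicle and at 83.3, 44.7 and 32.96 TPM in lycorine, again with lycorine 1 highest and with overlap (log2 fold change 0.55, SE 0.42, and 0.18 without lycorine 1). Mdh1 overlaps the start of Wdpcp on the opposite strand, whose listed level was 213 TPM on average, and whether counting used the strand is not given in the sources used here, so its value is uncertain.

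Fructose is taken up into the same path by ketohexokinase (Khk) and by triokinase (Tkfc), which phosphorylates glyceraldehyde. Khk stood at 166.2, 203.4 and 205.4 TPM in vehicle and at 200.5, 239.6 and 246.2 TPM in lycorine. Lycorine 1 lay under vehicle 2 and 3, and the log2 fold change of 0.25 was near the median of all rows and turned to -0.06, -0.07 and -0.01 under median-of-ratios, quantile and protein-coding scaling. Tkfc stood at 50.1, 40.7 and 12.8 TPM in vehicle and at 81.6, 57.1 and 49.2 TPM in lycorine. The groups overlapped by a narrow margin between vehicle 1 and lycorine 3, and the log2 fold change of 1.01 (SE 0.52, limma unadjusted p = 0.0902) was 0.43 without vehicle 3. Tkfc also overlaps Ddb1 and Cyb561a3 on the opposite strand.

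Of the glycogen genes, the liver forms of both glycogen synthase and glycogen phosphorylase did not overlap between groups as deposited (2 of 6, 33.3%, against 9.6% of all rows), and both overlapped under each of the 3 other scalings. Gys2 (chr6:142422613-142473109, minus strand), the liver glycogen synthase, stood at 40.2, 60.9 and 62.1 TPM in vehicle 1 to 3 and at 80.4, 99.4 and 148.9 TPM in lycorine 1 to 3. The mean was 2.01 times as high in lycorine (110 ± 35.4 against 54.4 ± 12.3 TPM, mean ± SD, n = 3 each). The log2 fold change was 0.98 (SE 0.34, limma unadjusted p = 0.0237, adjusted p = 0.832) and lay between 0.73 and 1.17 with single libraries left out. Lycorine 3 was its highest library and vehicle 1 its lowest. After scaling it was 0.67, 0.65 and 0.71 by median of ratios, quantiles and protein-coding genes.

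Pygl (chr12:70190811-70231488, minus strand), the liver glycogen phosphorylase, stood at 17.1, 20.6 and 14.5 TPM in vehicle and at 30.2, 22.7 and 26.3 TPM in lycorine (log2 fold change 0.58, SE 0.28, limma unadjusted p = 0.0769). The 4 remaining glycogen genes overlapped between groups. Ugp2, which makes UDP-glucose, stood at 43.0, 65.4 and 20.3 TPM in vehicle and at 69.1, 53.3 and 39.2 TPM in lycorine, and its log2 fold change of 0.43 was -0.01 without vehicle 3. Gbe1, the branching enzyme, stood at 7.38, 5.93 and 37.2 TPM in vehicle and at 10.4, 5.35 and 18.6 TPM in lycorine. Library 3 was the highest of each group for Gbe1, and the log2 fold change of -0.21 was 0.56 without vehicle 3.

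Ppp1r3b and Ppp1r3c encode subunits that bring protein phosphatase 1 to glycogen. Ppp1r3b, the form best known in liver, stood at 1.79, 2.43 and 1.41 TPM in vehicle and at 4.14, 1.81 and 1.33 TPM in lycorine (log2 fold change 0.18). Ppp1r3c stood at 5.84, 2.06 and 1.67 TPM in vehicle and at 1.69, 1.56 and 2.59 TPM in lycorine (log2 fold change -0.39). Both were low in all libraries, each had 1 library above the rest, and neither separated the groups.

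The hepatocyte isoforms were then set against the isoforms of other cells. All 11 hepatocyte isoforms had higher values in lycorine as deposited, where 69.9% of all rows did. Under median-of-ratios scaling 7 did, against 47.1% of all rows. By quantile and protein-coding scaling 8 did each time, against 58.3% and 53.1% of all rows. Slc2a2, Gys2 and Pygl did not overlap between groups (3 of 11, 27.3%, against 9.6% of all rows), and Slc2a2 was the 1 that did not overlap under each of the 3 other scalings. Of the 6 isoforms of other cells (Hk1, Hk2, Slc2a1, Pfkfb3, Pkm and Aldoa), 3 were higher and 3 lower, and 0 were without overlap. Hk1 and Hk2 averaged only 1.15 and 1.12 TPM, where adding 1 shrinks fold changes. With a pseudocount of 0.1 the log2 fold change was 0.36 for Hk1, 0.15 for Hk2 and -0.61 for Pfkfb3. The hepatocyte isoforms summed to 538, 869 and 625 TPM in vehicle and to 1002, 812 and 806 TPM in lycorine, and the isoforms of other cells to 246, 113 and 118 TPM in vehicle against 245, 171 and 158 TPM in lycorine. Aldoa made up most of the second sum. Without it the sum was 38.3, 13.8 and 31.7 TPM in vehicle against 31.8, 21.4 and 15.9 TPM in lycorine, with a lower mean in lycorine (23.0 against 27.9 TPM). All 3 sums overlapped between groups.

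For 6 pairs the ratio of the isoforms was taken within each library, and the difference of their log2(TPM + 1) values was tested between groups. Pklr over Pkm was 0.480, 1.69 and 0.249 in vehicle against 0.939, 1.49 and 1.15 in lycorine. Vehicle 2 had the highest ratio of all 6 libraries, so the groups overlapped (difference 0.89 on the log2(TPM + 1) scale, exact permutation p = 0.4). Slc2a2 over Slc2a1 was 2.31, 4.29 and 7.24 in vehicle against 7.72, 7.67 and 5.70 in lycorine. Only vehicle 3 reached into the lycorine range (difference 0.77, exact permutation p = 0.2).

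Pfkfb1 over Pfkfb3 was 6.14, 7.75 and 1.58 in vehicle against 6.64, 3.52 and 18.6 in lycorine (difference 0.72, exact permutation p = 0.5). The other 3 pairs (Pfkl over Pfkp, Gys2 over Gys1, Pygl over Pygb) differed by 0.15 to 0.38, with exact permutation p from 0.3 to 0.8. Lycorine 3 had the highest ratio of Pygl over Pygb and the lowest of Gys2 over Gys1. All 6 pairs overlapped between groups, the adjusted exact permutation p over the 6 was 0.75 to 0.8, two-sided, and 3 against 3 libraries cannot give an unadjusted p below 0.1.

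**Figure D3:**
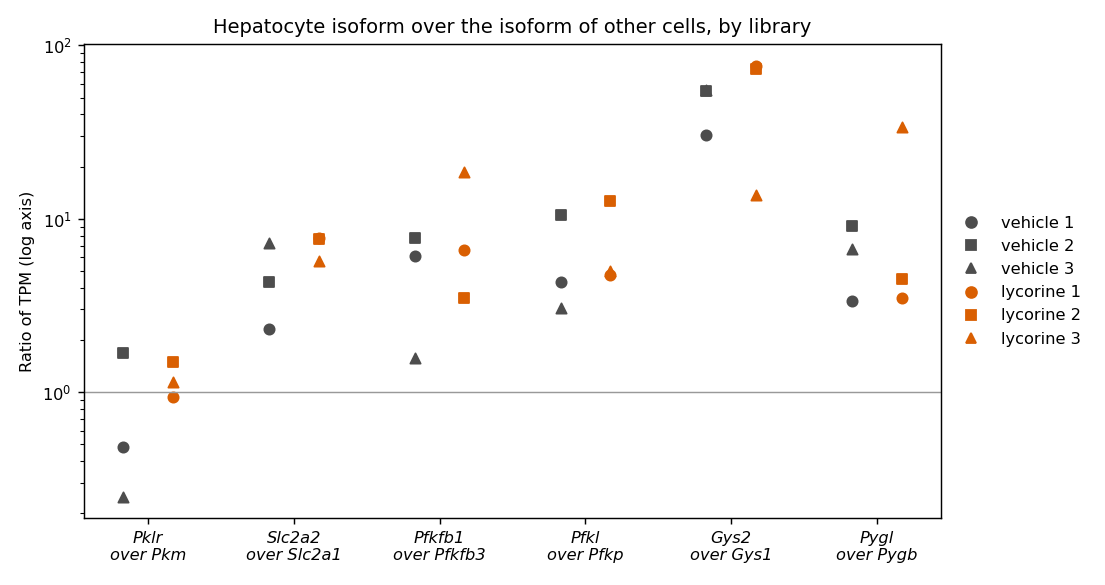
Ratio of TPM (log axis) of the hepatocyte isoform over the isoform of other cells for 6 enzymes in each library, vehicle in grey and lycorine in orange. Grey and orange points overlap for each of the 6 pairs, and Pklr over Pkm is above all lycorine ratios in vehicle 2 but below them in vehicle 1 and 3.

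The levels of the isoforms of other cells were set beside markers of those cells. Bile duct markers (7 genes) summed to 222, 48.2 and 51.2 TPM in vehicle and to 212, 142 and 52.3 TPM in lycorine, and leukocyte markers (8 genes) to 407, 92.1 and 81.5 TPM and to 311, 146 and 56.9 TPM. Library 1 was the highest of its group in both, and in the sums of Kupffer, endothelial and stellate cell markers, as it was for Hk1, Hk2, Slc2a1, Pkm and Aldoa. Lycorine 1 was also the highest library for 22 of the 33 members. Lyz2 alone, at 52.0 to 370 TPM, made up most of the leukocyte sum in every library. Spp1, at 16.8 to 131 TPM, was the largest part of each bile duct sum. Gene by gene, 6 of 7 tested leukocyte markers were lower in lycorine and 1 higher. Only S100a9 lay wholly below (log2 fold change -1.68, limma unadjusted p = 0.0114, adjusted p = 0.832). Bile duct markers split into 4 higher and 3 lower, all with overlap. Kupffer cell markers (8 genes, 7 tested) summed to 201, 112 and 166 TPM in vehicle and to 85.4, 59.0 and 80.4 TPM in lycorine, without overlap, and 4 of the 7 tested lay wholly below, against 1.01% of all rows. Of the tested endothelial and stellate cell markers, Clec4g (-1.21) and Reln (-0.61) lay wholly below and the rest overlapped. Hepatocyte markers (9 genes) summed to 46996, 46641 and 17322 TPM in vehicle and to 46289, 50088 and 33051 TPM in lycorine. Alb and Apoa1 were the largest parts of each sum. Gene by gene, Serpina1a (-0.43) and Hnf4a (-0.11) were lower and the rest higher, and only Cyp2e1 (0.72) did not overlap, where 9.6% of all rows lay wholly above. Muscle markers (5 genes) summed to 0 TPM in each vehicle library and at most 0.43 TPM in lycorine, with Myh1 and Myh4 at 0 in every library. The part of cell makeup in the values of the glucose genes was not tested.

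**Figure D4:**
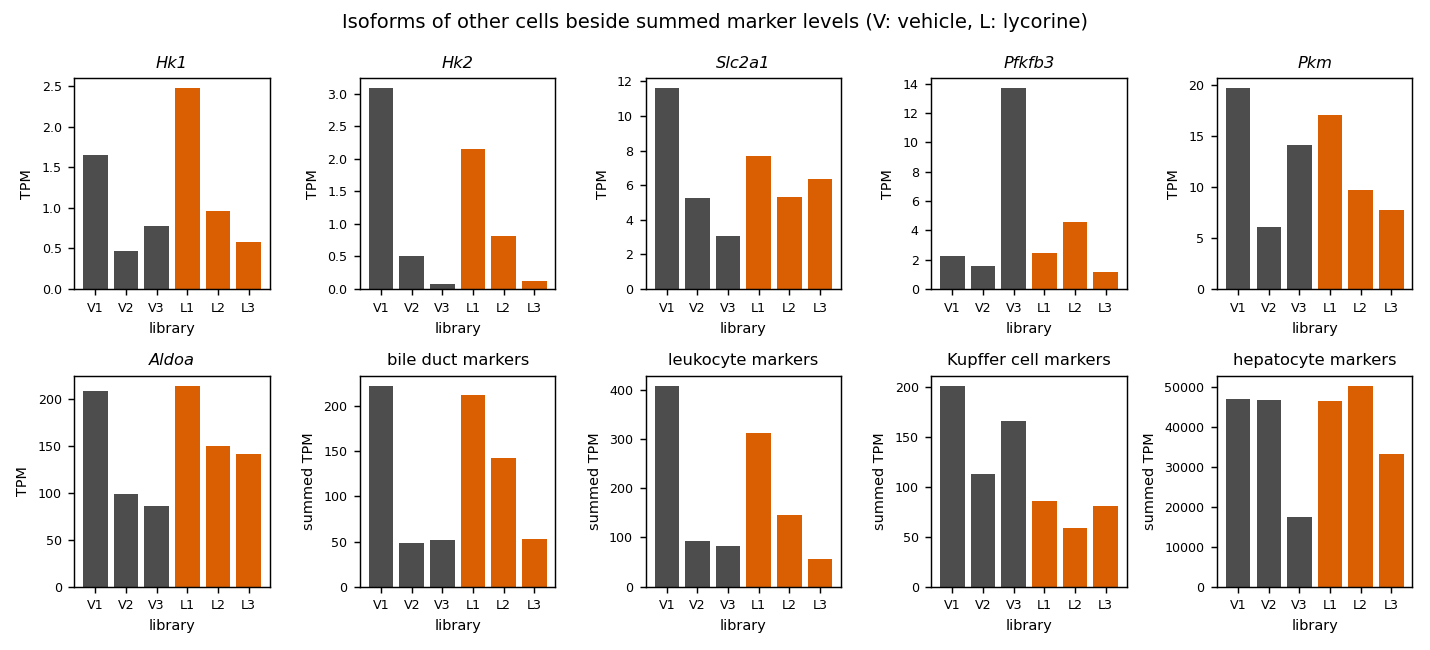
TPM of the 6 isoforms of other cells and summed TPM of markers of 4 cell types in vehicle (V1 to V3) and lycorine (L1 to L3) libraries. Library 1 is the highest of its group for Hk1, Hk2, Slc2a1, Pkm and Aldoa and for bile duct, leukocyte and Kupffer cell markers, and the Kupffer cell sums are lower in all 3 lycorine libraries.

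How many genes separated the groups depended on the scaling between libraries. Under median-of-ratios scaling, which moved the median over all rows by -0.25, 22 of 32 tested members were higher and 3 did not overlap (Slc2a2, Tpi1 and Eno1; 9.38% against 3.12% of all rows). With quantile normalization 23 of 33 were higher and 4 did not overlap (Slc37a4, Slc2a2, Gpi1 and Eno1; 12.1% against 4.02%). Rescaled to protein-coding nuclear genes, 24 of 33 were higher and 7 did not overlap (Slc37a4, Slc2a2, Gpi1, Pgk1, Eno1, Pdk2 and Tkfc; 21.2% against 4.97%). Slc2a2 and Eno1 did not overlap under any of the 4 scalings. Under each of the 3 other scalings 2 members had an unadjusted p under 0.05 in limma and higher values, 6.25%, 6.06% and 6.06% of those tested against 0.901%, 0.989% and 1.26% of all rows. Of the 33 members, 19 lay above the median of all rows under all 4 scalings. Without vehicle 3, 13 of 33 did not overlap (39.4%, against 15.3% of all rows), 5 had an unadjusted p under 0.05 in limma (15.2%, against 3.74% of all rows in that direction), and the median log2 fold change was 0.34 against 0.19 for all rows.

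**Figure D5:**
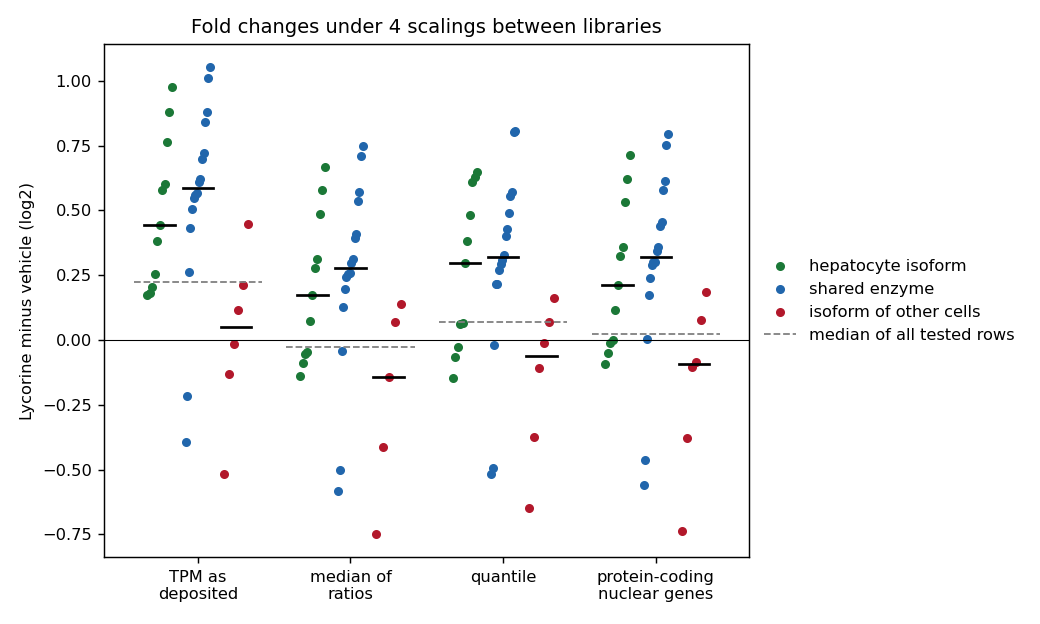
Log2 fold change of each gene (points, coloured by class of isoform) under the deposited TPM and 3 other scalings between libraries, with the median of each class (black bars) and the median of all tested rows (dashed). The whole pattern shifts down with each rescaling, from a member median of 0.51 to 0.22, 0.27 and 0.24, and the class of other isoforms stays lowest.

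Other genes of glucose metabolism, 75 in a wider list, gave 64 tested rows, of which 49 were higher in lycorine (against 69.9% of all rows), 21 lay wholly above (32.8%, against 9.6% of all rows) and 1 wholly below (against 1.01% of all rows). Under median-of-ratios, quantile and protein-coding scaling 40, 44 and 43 of them were higher, against 47.1%, 58.3% and 53.1% of all rows. Under these scalings 4, 8 and 11 lay wholly above (6.25%, 12.5% and 17.2%, against 3.12%, 4.02% and 4.97% of all rows). Each time 2 lay wholly below, against 3.7%, 2.82% and 1.82% of all rows. In limma 8 had an unadjusted p under 0.05, 7 of them higher (10.9%, against 2.79% of all rows), and 0 had an adjusted p under 0.05. The 7 higher ones became 0, 0 and 3 under the 3 other scalings. The one lower gene was Hkdc1, a hexokinase family member, at 2.37, 1.86 and 7.63 TPM in vehicle against 0.61, 0.36 and 0.56 TPM in lycorine (log2 fold change -1.54, SE 0.50, limma unadjusted p = 0.0171, adjusted p = 0.832). Its 3 lycorine values lay below all vehicle values, and vehicle 3 was far above the other 2. Hk3, a hexokinase of leukocytes, overlapped between groups as deposited, with a log2 fold change of -0.81. It lay wholly below under median-of-ratios scaling (-1.04) and quantile normalization (-0.90) and overlapped under protein-coding scaling (-1.02). Isoform genes of the same list also went the other way. Aldoc (0.89) lay wholly above as deposited and overlapped under the 3 other scalings. Gys1 (0.82, with lycorine 3 far above the rest at 10.9 TPM) and Pfkm (0.45) were higher with overlap.

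The 7 higher genes were Sord (sorbitol dehydrogenase, 0.88), Slc25a11 (the mitochondrial oxoglutarate and malate carrier, 0.80), Slc2a9 (a urate and sugar carrier, 0.93), Mpc2 (a subunit of the mitochondrial pyruvate carrier, 0.71), Galm (galactose mutarotase, 0.81), Stbd1 (a glycogen-binding protein, 0.85) and Slc25a10 (the dicarboxylate carrier, 0.70), in log2 fold change. The wider list held 8 further genes under malate and aspartate, among them the alanine aminotransferase genes Gpt and Gpt2. All 8 were higher as deposited (against 69.9% of all rows). They were also higher under median-of-ratios, quantile and protein-coding scaling (against 47.1%, 58.3% and 53.1% of all rows). Gpt2 was higher by only 0.009, 0.001 and 0.053 in log2 under these scalings. Of these 8, 6 lay wholly above as deposited (against 9.6% of all rows). Under median-of-ratios, quantile and protein-coding scaling 2, 4 and 3 did so (against 3.12%, 4.02% and 4.97% of all rows).

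Of 21 hormone and transcription regulators of the pathway, 19 were tested and 14 were higher as deposited, where 69.9% of all rows were. Under median-of-ratios, quantile and protein-coding scaling 8 to 9 were higher, against 47.1%, 58.3% and 53.1% of all rows. In limma 2 had an unadjusted p under 0.05 (1 higher, 5.26%, against 2.79% of all rows, and 1 lower, against 0.65%). Atf3, the stress-induced factor named in the study's title, stood at 16.1, 19.3 and 10.2 TPM in vehicle and at 4.02, 3.21 and 4.14 TPM in lycorine, with every lycorine library lower (log2 fold change -1.72, SE 0.32, limma unadjusted p = 0.000788, adjusted p = 0.832). Cebpa, a hepatocyte factor known to activate Pck1, stood at 55.4, 61.5 and 28.0 TPM in vehicle and at 107.7, 104.2 and 64.0 TPM in lycorine (log2 fold change 0.95, SE 0.40, limma unadjusted p = 0.0448). Insr, the insulin receptor, also lay wholly above as deposited, with a log2 fold change of 0.28 that was close to the 0.22 of all rows. Cebpa and Insr were the regulators wholly above among the 19 tested, where 9.6% of all rows were. Under each of the 3 other scalings the groups of Cebpa and Insr overlapped, and 0 higher regulators had an unadjusted p under 0.05 in limma by median of ratios and by quantiles. Klf15 (0.71), Irs2 (0.40), Nr3c1 (0.29), Mlx (0.27) and Creb1 (-0.40) overlapped between groups as deposited.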

How the data were processed

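Liver RNA-seq was compared in 6 libraries, 3 vehicle and 3 lycorine. The authors deposited 1 table of TPM values with 2 decimals; its name speaks of FPKM, but each column sums to 1000000, so the values were treated as TPM and tested as normalized values. Builds GRCm38 and mm10 are named, per the submitters' processing notes; aligner, quantifier and annotation were not given in the sources used here. Lycorine columns abbreviate the drug, and vehicle columns, which name only genotype and number, were assigned by elimination. Names and positions came from GENCODE M21 on GRCm38, which held 52083 of 55416 Ensembl identifiers; 3185 assembled rows have no gene name.

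The 13854 rows averaging at least 1 TPM were transformed to log2(TPM + 1), so fold changes of low genes are understated. Lycorine minus vehicle was tested two-sided with limma 3.58.1 (R 4.3.3), using a variance trend and Benjamini-Hochberg adjustment over all rows at 0.05. On simulated data this procedure recovered 0 of 50 changes of 2-fold, 20 of 50 of 4-fold and 40 of 50 of 8-fold. A lack of calls therefore does not show that changes of these sizes are absent. The simulated errors were independent and normal, without an outlying library or a shift over all rows, unlike these data. Isoform pairs had an exact permutation test over 20 assignments. Promoters came from RefSeq on GRCm38.p6. Alternatives covered the pseudocount, filter, scaling between libraries, variance trend, array weights, replicate block and left-out libraries. Named genes were the 33 members, the isoform pairs, Atf3, Alb and, of each wider list, the up to 8 genes of smallest p. Hk3, Aldoc, Pfkm, Gpt, Gpt2, single marker genes and rows that overlap or copy a member were named after their values were seen. The members and lists were chosen with earlier results of these data known. Of the wider list and the pairs, 2 genes are not reported here and were left out of their counts. Replicate numbers were not used to pair libraries in the main fit, and the labels do not say whether they do.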

Additional observations from a re-analysis of the deposited data

How the results depend on the processing

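Of 522 values of single members under 16 alternatives, 480 kept their direction and 42 turned, 17 of them by leaving out 1 library; 20 members turned under no alternative run, and 0 of these values had an adjusted p under 0.05 in limma. Limma called 1 row with a pseudocount of 0.1, 1 with array weights and 0 to 2 with 1 library left out. Members with an unadjusted p under 0.05 numbered 2 under each of the 3 other scalings and 1 to 8 with 1 library left out: 3 without vehicle 2, 1 without lycorine 1, 1 without lycorine 2 and 8 without vehicle 1, where 1.82%, 1.42%, 1.08% and 8.2% of all rows were higher at that p. Members without overlap numbered 3, 4 and 7 under median-of-ratios, quantile and protein-coding scaling, 13 to 18, all higher, with 1 library left out (all rows 11.3% to 31.3%) and 21 without vehicle 3 and lycorine 3, of which 20 were higher (all rows 25.5%) and 1 lower (3.4%); fewer libraries make separation easier. The member median was 0.22, 0.27 and 0.24 under those scalings and 0.34 to 0.62 with 1 library left out.

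By median-of-ratios scaling the log2 fold change was -0.14 for Pck1, -0.041 for Pcx, -0.14 for Slc2a1, -0.089 for Pfkfb1, -0.056 for Khk and -0.046 for Ppp1r3b. By quantile normalization it was -0.15 for Pck1, -0.021 for Pcx, -0.012 for Slc2a1, -0.027 for Pfkfb1, -0.067 for Khk and -0.084 for Gys2 minus Gys1. For protein-coding genes it was -0.093 for Pck1, -0.10 for Slc2a1, -0.049 for Pfkfb1 and -0.011 for Khk. With a pseudocount of 0.1, Hk2 was 0.15 and Gys2 minus Gys1 -0.054. With array weights Pck1 was -0.45, Slc2a1 -0.15, Pfkfb3 0.51, Pkm 0.0048 and Ppp1r3b -0.076. Without vehicle 3 and lycorine 3, Slc2a1 was -0.26, Pfkfb3 0.61, Pkm 0.20, Gbe1 0.16, Pfkfb1 minus Pfkfb3 -0.30 and Pygl minus Pygb -0.31. The cause of these turns was not tested.

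With 1 library left out, ranges that crossed 0 were -0.23 to 0.71 for Pck1, -0.12 to 0.45 for Hk1, -0.42 to 0.55 for Hk2, -0.26 to 0.56 for Slc2a1, -0.998 to 0.27 for Pfkfb3, -0.57 to 0.20 for Pkm, -0.15 to 0.42 for Ppp1r3b, -0.67 to 0.56 for Gbe1, -0.015 to 0.80 for Ugp2 and -0.65 to 0.027 for Ppp1r3c. Of the pair differences, Gys2 minus Gys1 ranged from -0.15 to 0.72 and Pygl minus Pygb from -0.36 to 0.76, and the other 4 pairs kept their direction.

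Same-numbered libraries correlated at 0.31, 0.05 and 0.29 in their deviations. Each lycorine library correlated best with the vehicle library of its number, while vehicle 2 correlated best with lycorine 1 (0.21). The labels do not say whether the numbers pair libraries or mark a batch, so the main fit did not pair them. With a replicate block limma called 0 rows, 9 members (27.3%) had an unadjusted p under 0.05 with higher values, against 6.29% of all rows, and the member median stayed 0.51. No overlap count could be had under the block, and no overlap count or pair difference without the variance trend or with array weights. Hk2 was not tested under median-of-ratios scaling, and 5 members, with Pfkfb3 among them, are under the minimum mean of 5. Depth is unknown, so low genes such as Hk1 and Hk2 carry an error that could not be given.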

Other observations

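Ratios of enzymes that work against each other, chosen after the values were seen, differed in pattern. Gys2 over Pygl, glycogen synthesis over breakdown, was 2.36, 2.95 and 4.28 in vehicle against 2.67, 4.38 and 5.67 in lycorine, with overlap. Pfkl over Fbp1 was 0.0618, 0.0336 and 0.0388 in vehicle against 0.0456, 0.0346 and 0.0659 in lycorine. Pklr over Pck1 was 0.0764, 0.0274 and 0.0293 in vehicle against 0.0457, 0.092 and 0.0614 in lycorine. None of the 3 ratios separated the groups, and they were not tested.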
